A study of Mus musculus with 9 samples.

Results

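The genes that make and handle cholesterol and fatty acids were examined in mouse CD4+ T cells, the helper T lymphocytes, with and without a CD4-Cre deletion of Kdm6a. Kdm6a, on the X chromosome, codes for an enzyme that removes methyl groups from lysine 27 of histone H3. The set held 38 genes chosen by symbol, and each matched 1 of the 39017 gene IDs of the count table. All 38 passed the filter on low counts. The RNA came from lymph nodes of male C57BL/6 mice in 9 samples, and the question of the series was how other genes of these cells depend on Kdm6a. All 9 carried a floxed Kdm6a allele opposite the Y chromosome. The 5 WT samples (replicates 1, 3, 4, 5 and 9) were CD4-Cre (-/-), and the 4 cKO samples (replicates 2, 6, 7 and 8) were CD4-Cre (+/-), with Cre under the promoter of Cd4. An effect of Cre and an effect of the lost allele cannot be told apart in this design, since no sample had Cre without the floxed gene.

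Cells sense membrane sterol through SCAP and the INSIG proteins, which hold the SREBP transcription factors in the endoplasmic reticulum until sterol falls. Released SREBP2, encoded by Srebf2, switches on the mevalonate and cholesterol enzymes, and SREBP1, encoded by Srebf1, switches on the fatty acid enzymes. The LXR nuclear receptors respond to excess sterol in the opposite way, by raising export pumps such as ABCA1 and ABCG1. T cells raise SREBP activity when they are activated, because dividing cells need new membrane.

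Total counts per sample ran from 20587482 to 26387488. Kdm6a, as a check of the labels, was at 62.4, 60.04, 63.8, 63.4 and 63.8 CPM in WT 1, 3, 4, 5 and 9 and at 41.8, 42.7, 41.5 and 44.8 CPM in cKO 2, 6, 7 and 8, where CPM is a gene's count relative to the scaled library total. The groups did not overlap (log2 fold change -0.55, edgeR adjusted p = 2.89e-05), and these counts cover the whole gene, so they include any exons outside the deletion. The 4 markers of CD4 T cells summed to between 1450 and 1591 CPM in WT and between 1489 and 1608 CPM in cKO, with Cd4 higher (0.13, adjusted p = 0.0480) and Cd3g lower (-0.23, adjusted p = 0.0311) in cKO by the edgeR test. Of 10 genes of T cell activation, 1 fell and 9 did not pass, with 6 log2 fold changes above 0 and 4 below. Il2ra, the receptor chain for interleukin-2, fell from a mean of 3182 to 2569 CPM (adjusted p = 0.0190), while Cd69 was at 0.63 (adjusted p = 0.0857) and Tbx21 at 1.03 (adjusted p = 0.134). The mean log2 level of the 10 genes was 0.17 above WT in cKO, with overlapping groups. The proliferation gene Mki67 had means of 2159.7 and 1937 CPM (adjusted p = 0.0722). The labels describe no stimulation, although the name of the deposited table includes the word stim. Nothing in the labels ties the samples to separate mice, so p-values measure only how far these samples spread, and that spread may be technical. Mitochondrial genes took 2.38% of the counts in WT (SD 0.0574, n = 5) and 2.59% in cKO (SD 0.138, n = 4) (two-sided exact permutation p = 0.0317), and their part in the results was not tested.

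The promoters of the set share a feature that the choice of genes did not use. RefSeq promoter windows on GRCm38.p6, from 250 bases before to 50 bases after a listed start, were found for 30 of the 38 members. The NF-Y box CCAAT, the site of a factor that binds beside SREBP, occurred on either strand in at least 1 window of 24 of these 30 members (80%), against 41.1% of 27025 genes and 37.4% of 32851 windows. It was in all 9 genes with a window among those that turn squalene into cholesterol. The 6 members without it were Scap, Acat2, Acaca, Elovl6, Fads2 and Abca1, though the window listed for Acaca starts 65766 bases inside the gene, and the box of Dhcr7 was in a window 7069 bases inside that gene. The SREBP motif TCACNCCAC, also searched on both strands, occurred in 1 member, Hmgcs1, and in 1.24% of all windows. A match describes letters only and does not show binding. The 27025 genes were not matched to the members in level in these cells, so the 80% and the 41.1% are a description.

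The 250 bases before the start are shown for Hmgcs1, the member with both motifs, and for Abca1, a member that rose and had neither. They lie at chr13:119690101-119690350 on the plus strand and chr4:53159896-53160145 on the minus strand. Capitals mark the motifs, with CCAAT read as ATTGG where it is on the other strand.
Hmgcs1: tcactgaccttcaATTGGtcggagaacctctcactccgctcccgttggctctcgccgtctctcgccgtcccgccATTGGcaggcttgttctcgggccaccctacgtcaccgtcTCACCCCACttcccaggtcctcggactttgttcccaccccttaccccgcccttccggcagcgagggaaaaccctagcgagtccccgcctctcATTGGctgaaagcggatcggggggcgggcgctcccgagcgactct
Abca1: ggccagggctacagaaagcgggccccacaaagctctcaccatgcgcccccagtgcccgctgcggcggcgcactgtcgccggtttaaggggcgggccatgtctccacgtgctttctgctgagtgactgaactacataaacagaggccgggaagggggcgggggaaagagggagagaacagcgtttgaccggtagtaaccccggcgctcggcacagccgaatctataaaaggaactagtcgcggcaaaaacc
The Hmgcs1 stretch holds the SREBP motif once and the NF-Y box 3 times. The log2 fold changes (cKO over WT) of the 24 members with an NF-Y box ran from -0.13 to 0.13 with a median of -0.01, and the median of the 6 without it was 0.15. Fdps, Fdft1, Sqle, Stard4, Scd1, Scd2, Fads1 and Abcg1 had no window and are in neither group, with Scd1 at 0.51 and Abcg1 at -0.37. The contrast therefore leaves out some of the largest changes of the set, and it counts Acaca by a window far inside the gene. This contrast was seen after the values were known and has no test.

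In the comparison of cKO with WT, 3 of the 38 members rose and 0 fell, while 35 did not reach the threshold. Scd1, the delta-9 desaturase that makes oleate, rose 1.42-fold. Abca1, the pump that exports cholesterol, rose 1.40-fold from a low level, and Acaca, acetyl-CoA carboxylase and the committed step of fatty acid synthesis, rose 1.12-fold. Cholesterol synthesis held no gene that passed, from Acat2 at its start to Dhcr7 at its end. In bulk RNA, fewer cells of a kind and less RNA per cell cannot be told apart.

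The members that passed were 7.89% of the set, against 15.8% of the 14693 genes tested (edgeR's quasi-likelihood test with Benjamini-Hochberg adjusted p below 0.05), with 7% higher and 8.82% lower. At unadjusted p under 0.05, 8 members were higher and 1 was lower, where 31.1% of all genes passed (14.9% higher and 16.3% lower). The count of members that fell was 0 in limma-voom and in DESeq2 as well, and those tools called 15.6% and 15.8% of all genes. The median log2 fold change of the set was -0.0066 and that of all genes tested was 0.0012. The median size of the log2 fold change, without its sign, was 0.064 in the set, 0.113 in all genes tested and 0.090 in the 10651 genes with a WT mean of at least 5 CPM. The larger sets were not matched to the levels of the members. The samples of the groups did not overlap for 3 members that were higher in cKO (Scd1, Acaca and Fads2) and 1 that was lower (Elovl1), against 7.08% and 8.78% of all genes in those directions (15.9% in either). With upper-quartile scaling 6 members rose, and the higher genes were 54.2% of all calls against 44.2%. With 1 surrogate variable 6 members rose, with sample weights in limma-voom 7, and without WT 4 only Scd1 did. Among all genes, 1060, 1241 and 651 rose in those settings, against 1028 in the main test.

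**Figure D1:**
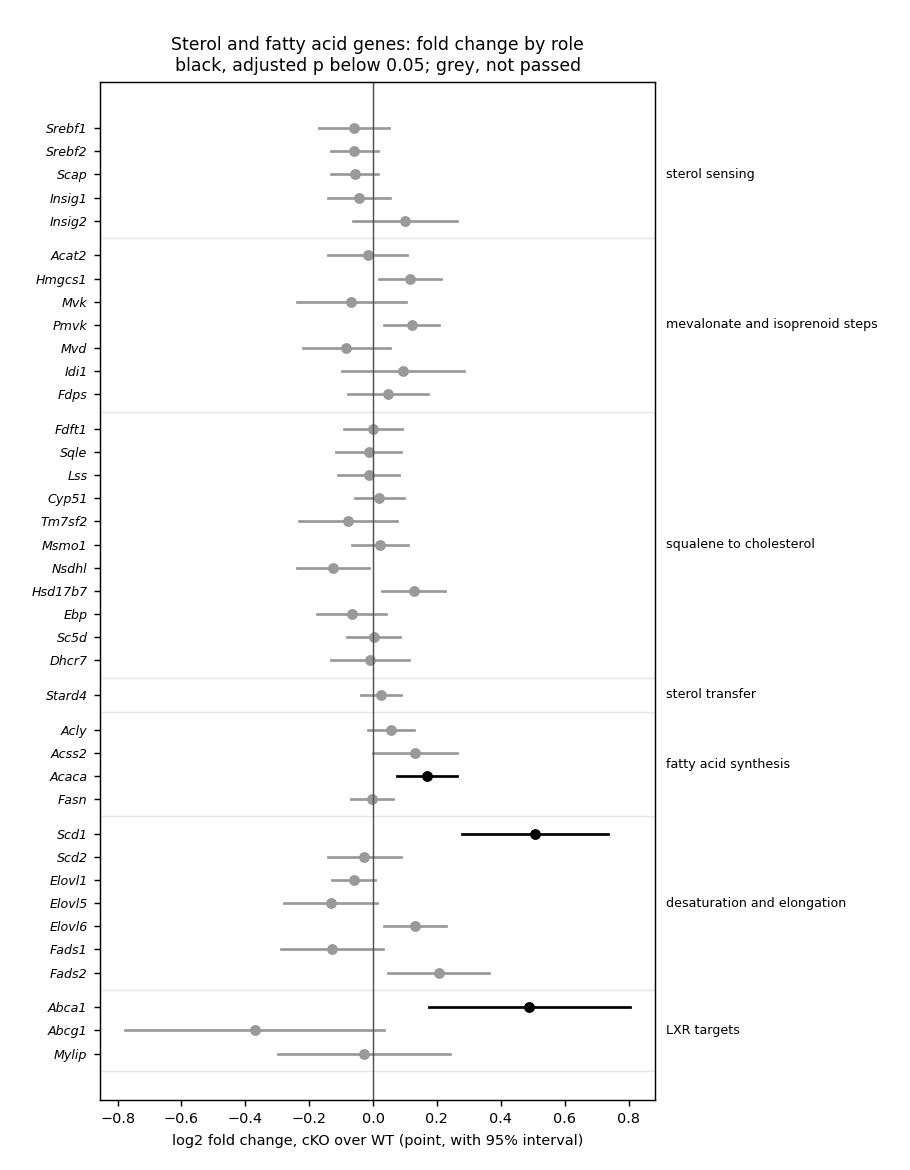
Log2 fold change of each of the 38 members, cKO over WT, with its 95% interval (horizontal axis) and grouped by role. The 3 black points (Scd1, Abca1 and Acaca) passed the test, and the grey points of cholesterol synthesis lie between -0.13 and 0.13.

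A member that did not pass is not thereby shown to be the same in both groups, and the intervals say how large a change these samples leave room for. For 19 of the 38 members (50%), the 95% interval of the log2 fold change lay within 0.2 of 0 on either side, against 29.5% of all genes tested and 40.7% of genes with a WT mean of at least 5 CPM. Neither set was matched to the levels of the members, so the shares do not show how steady the set is for its level. A fold change of Fasn, fatty acid synthase, had an interval from -0.07 to 0.06 on the log2 scale. The interval of Cyp51, the lanosterol demethylase, ran from -0.06 to 0.10, and that of Stard4, which carries cholesterol between membranes, from -0.04 to 0.09.

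Of the 5 genes of sterol sensing, none passed the test and 4 were slightly below 0. Srebf2 was at 596, 583, 599, 585 and 625 CPM in WT 1, 3, 4, 5 and 9 and at 551, 585, 570.5 and 588 CPM in cKO 2, 6, 7 and 8. The groups overlapped, with cKO 2 the lowest and WT 9 the highest. Its log2 fold change was -0.06 (SE 0.03, edgeR adjusted p = 0.257), with a 95% interval from -0.13 to 0.01. Srebf1 was at 231, 251, 257, 253 and 273 CPM in the WT samples and at 238, 227.5, 251 and 253 CPM in the cKO samples, again overlapping, with a log2 fold change of -0.06 (SE 0.05, adjusted p = 0.443). Scap, the escort protein of the SREBPs, was at -0.06, and Insig1, a retention factor that SREBP itself induces, at -0.04. Insig2, its paralog, was at 0.10 with an interval from -0.06 to 0.26. Per kilobase of exon, the WT level of Srebf2 was 83.2 CPM, that of Insig1 53.1, that of Srebf1 44.9, that of Scap 19.3 and that of Insig2 6.12.

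The 7 genes that lead to farnesyl diphosphate had log2 fold changes between -0.08 and 0.12, and none passed. Pmvk, phosphomevalonate kinase, had the smallest p of them. It was at 57.8, 54.3, 56.4, 57.7 and 56.3 CPM in WT 1, 3, 4, 5 and 9 and at 61.6, 63.3, 57.7 and 62.97 CPM in cKO 2, 6, 7 and 8. The cKO samples 2, 6 and 8 lay above every WT sample, and cKO 7 lay within the WT range. The log2 fold change was 0.12 (SE 0.04, edgeR adjusted p = 0.0579), and it passed without cKO 7 (adjusted p = 0.0318). Hmgcs1, which makes HMG-CoA and carries the motifs shown above, was at 539, 568, 562, 584 and 584 CPM in WT and at 559, 619.5, 646 and 635 CPM in cKO. The cKO 2 sample was inside the WT range and the other cKO samples were above it. Its log2 fold change was 0.12 (SE 0.04, adjusted p = 0.105), and 0.16 without cKO 2 (adjusted p = 0.0175). The others were Acat2 (acetoacetyl-CoA thiolase) at -0.02, the mevalonate kinase gene Mvk at -0.07, the decarboxylase gene Mvd at -0.08, the isomerase gene Idi1 at 0.09 and the synthase gene Fdps at 0.05.

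Between squalene and cholesterol, 11 genes spanned -0.13 to 0.13 and none passed. Hsd17b7, a sterol 3-ketoreductase, was at 61.4, 64.5, 57.6, 59.1 and 61.1 CPM in WT 1, 3, 4, 5 and 9 and at 63.4, 65.2, 70.8 and 66.1 CPM in cKO 2, 6, 7 and 8. Only cKO 2 lay inside the WT range. The log2 fold change was 0.13 (SE 0.04, edgeR adjusted p = 0.0782), and upper-quartile scaling put it past the threshold (adjusted p = 0.0440). Its partner in removing the C4 methyl groups, the X-linked gene Nsdhl, was at -0.13 (SE 0.05, adjusted p = 0.120). Without WT 1, Nsdhl was at -0.16 (adjusted p = 0.0228). The 2 genes of the same demethylation step therefore had fold changes of opposite sign, while Msmo1, the C4 methyl oxidase, was at 0.02. Sqle, the rate-setting squalene epoxidase, was at -0.01, as were the lanosterol synthase gene Lss and the last reductase Dhcr7. Fdft1 (squalene synthase) and Sc5d were within 0.002 of 0, Cyp51 was at 0.02, Ebp at -0.07 and Tm7sf2 at -0.08. Stard4, the single gene of sterol transfer, was among the steadiest, with WT samples from 288 to 301 CPM and cKO samples from 297 to 304 CPM, and a log2 fold change of 0.02 (adjusted p = 0.607).

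**Figure D2:**
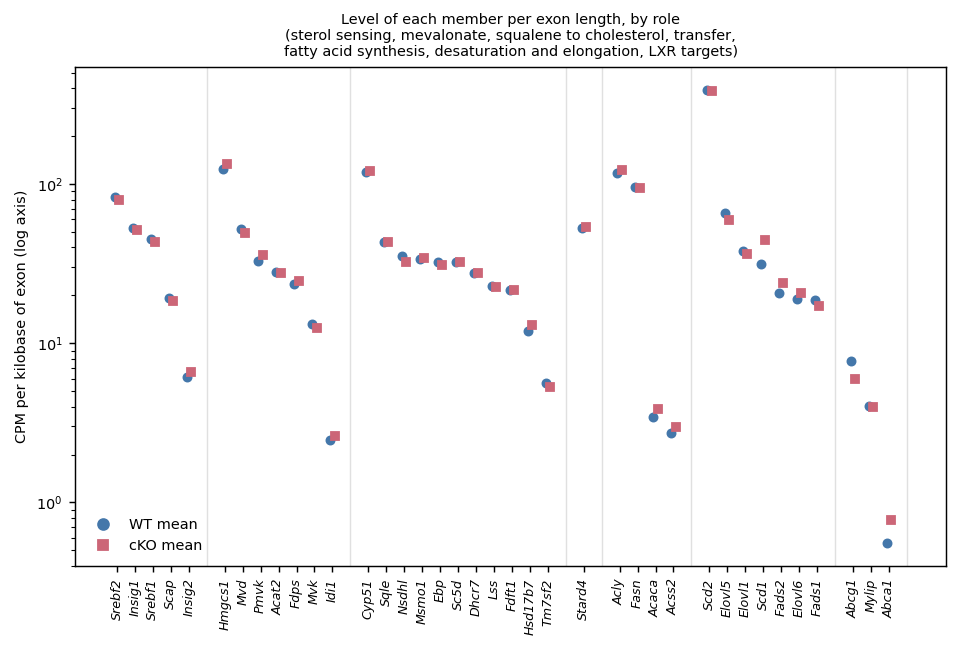
Group mean level of each member in CPM per kilobase of exon (vertical log axis), ordered within its role, with WT as circles and cKO as squares. Scd2 is highest at 392 and Abca1 lowest at 0.555 in WT, and the pairs of symbols nearly coincide except for Scd1, Abca1 and Abcg1.

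The levels differed far more between genes than between genotypes. Per kilobase of exon, Scd2 led in WT with 392 CPM ± 27.4 (SD, n = 5), followed by Hmgcs1 at 124 ± 4.06, Cyp51 at 119 ± 3.27, Acly at 118 ± 2.48 and Fasn at 95.4 ± 2.72. Cyp51 and Acly lay within 1 SD of each other. The lowest were Acss2, which makes acetyl-CoA from acetate, at 2.73 CPM per kilobase, Idi1 at 2.46 and Abca1 at 0.555. The length joins all annotated exons of a gene, so these ranks depend on it. Acss2, with 10163 bases, was at 27.8 CPM in WT before the division, above Insig2 at 21.3 CPM. The value of Idi1 is uncertain, since 17.7% of the 50-base stretches of its transcripts also occur in other genes, chiefly Gm13502. The same share was 39.1% for Acat2, shared with Acat3, 30.4% for Acaca, shared with Gm5182, and 26.2% for Fdps. It was at most 9.87% for the other members, and reads of the shared stretches could have been split or dropped by the authors' counting.

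Fatty acid synthesis showed 1 gene of 4 that rose, Acaca. It was at 60.2, 59.4, 56.98, 57.5 and 59.6 CPM in WT 1, 3, 4, 5 and 9 and at 70.6, 67.1, 62.5 and 63.6 CPM in cKO 2, 6, 7 and 8. Every cKO sample was above every WT sample, with cKO 2 the highest. The log2 fold change was 0.17 (SE 0.04, edgeR adjusted p = 0.0226), between means of 58.7 CPM in WT (SD 1.41) and 65.96 CPM in cKO (SD 3.69). The call was lost without any 1 of cKO 2, WT 4 or cKO 6 (adjusted p = 0.0512, 0.0543 and 0.0669). Acly and Acss2, the routes to acetyl-CoA from citrate and from acetate, were at 0.06 (adjusted p = 0.267) and 0.13 (adjusted p = 0.164). Fasn, which uses the malonyl-CoA that acetyl-CoA carboxylase makes, averaged 1044 CPM in WT (SD 29.8, n = 5) and 1042 CPM in cKO (SD 17.7, n = 4).

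Desaturases and elongases showed the largest change of the set, and it was in 1 of 7 genes. Scd1 was at 119, 158, 166, 177 and 144 CPM in WT 1, 3, 4, 5 and 9 and at 229.5, 193, 202 and 244 CPM in cKO 2, 6, 7 and 8. The groups did not overlap, WT 1 was the lowest of all and cKO 8 the highest. The WT mean was 153 CPM (SD 22.2, n = 5) and the cKO mean 217 CPM (SD 23.6, n = 4), and the log2 fold change was 0.51 (SE 0.10, edgeR adjusted p = 0.00910), with a 95% interval from 0.28 to 0.74. The call held in each of 18 other settings, with log2 fold changes from 0.43 to 0.56. Scd1 (ENSMUSG00000037071) lies on chromosome 19 from 44394455 to 44407879 of mm10, near its paralog Scd2, which starts at 44293674 and ends at 44306864.

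Scd2, the desaturase with the highest level per kilobase, did not pass the test. It was at 1900.0, 2139, 2187, 2309.8 and 2173 CPM in WT and at 2058, 2019.7, 2095 and 2229 CPM in cKO, and the groups overlapped. Its log2 fold change was -0.03 with a 95% interval from -0.14 to 0.09 (edgeR adjusted p = 0.755). Scd1 therefore took a larger share of the counts of both genes in cKO, with a mean of 9.36% (SD 0.687, n = 4) over the WT mean of 6.64% (SD 0.538, n = 5), a share that does not depend on library scaling. The shares were 5.91, 6.89, 7.04, 7.13 and 6.23% in WT 1, 3, 4, 5 and 9 and 10.03, 8.73, 8.80 and 9.87% in cKO 2, 6, 7 and 8, without overlap. This share was chosen after the levels of both genes were seen, so it is a description with no test. Few exact 50-base stretches were shared, with 4.56% of those of Scd1 and 3.97% of those of Scd2 found in other genes. These shares bear on how far reads could be confused, and they do not measure how alike the paralogs are.

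**Figure D3:**
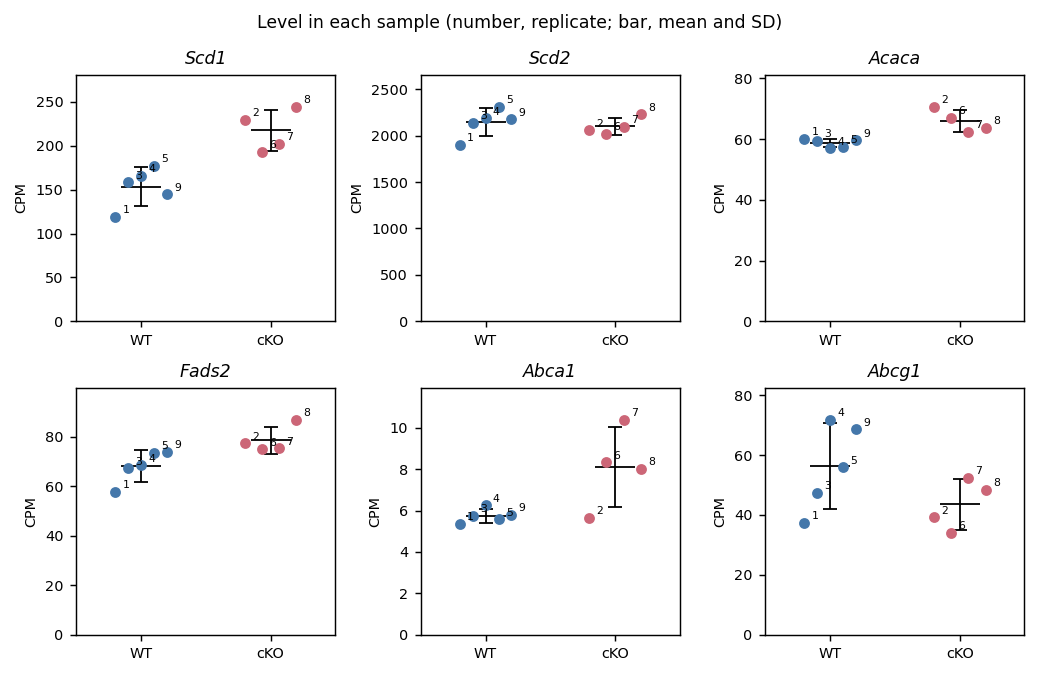
Level in CPM (vertical axes from 0) of 6 members in each WT and cKO sample, labelled by replicate number, with the group mean and SD as a bar. Scd1 and Acaca separate the groups without overlap, Scd2 does not, and Abca1 in cKO 2 lies within the WT samples.

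The other enzymes that shape fatty acid chains went in both directions without passing. Fads2, the delta-6 desaturase, was at 57.8, 67.3, 68.6, 73.6 and 74.0 CPM in WT 1, 3, 4, 5 and 9 and at 77.4, 74.96, 75.3 and 86.9 CPM in cKO 2, 6, 7 and 8. The groups did not overlap, but cKO 6 and cKO 7 were close to WT 9, and the log2 fold change was 0.20 (SE 0.07, edgeR adjusted p = 0.0778). Fads1, the delta-5 desaturase that acts after it, was at -0.13 (adjusted p = 0.256). Elovl6, which extends palmitate to stearate, was at 0.13 (adjusted p = 0.0662), and passed with upper-quartile scaling, with sample weights, with 1 surrogate variable and without cKO 6. Elovl5, the elongase of polyunsaturated chains, was at -0.13 (adjusted p = 0.197). Elovl1, the elongase of very long saturated chains, was lower in each cKO sample (97.3 to 101 CPM) than in every WT sample (102 to 106 CPM), a log2 fold change of only -0.06 (adjusted p = 0.195).

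Of the 3 LXR targets 1 rose and 2 did not pass. Abca1 was at 5.35, 5.75, 6.26, 5.57 and 5.80 CPM in WT 1, 3, 4, 5 and 9 and at 5.65, 8.32, 10.4 and 8.01 CPM in cKO 2, 6, 7 and 8. Replicates 6, 7 and 8 of cKO were above every WT sample and cKO 2 was inside the WT range. The log2 fold change was 0.49 (SE 0.14, edgeR adjusted p = 0.0400). The call was lost with limma-voom (adjusted p = 0.0629) and without any 1 sample other than cKO 2 (from 0.0590 to 0.101), while without cKO 2 the value was 0.63 (adjusted p = 0.00397). Abcg1, the pump that loads cholesterol onto lipoproteins, was at 37.4, 47.5, 71.7, 55.9 and 68.6 CPM in WT and at 39.2, 33.96, 52.5 and 48.3 CPM in cKO. The groups overlapped, with WT 1 and WT 3 both below cKO 7 and cKO 8. Its log2 fold change was -0.37 (SE 0.18, adjusted p = 0.197), and -0.49 without WT 1 (adjusted p = 0.0430). Mylip, a ubiquitin ligase that limits sterol uptake, was at -0.03 (adjusted p = 0.901).

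Macrophages also express Abca1, and adipocytes express Scd1. Of 6 macrophage and monocyte markers, 2 had counts enough to be tested and neither passed. They summed to between 14.8 and 19.5 CPM in WT and between 17.3 and 21.2 CPM in cKO, most of it Csf1r, which averaged 14.3 and 15.5 CPM. Cd68 averaged 2.76 CPM in WT and 3.39 CPM in cKO (edgeR adjusted p = 0.232). Cd14, Mertk, Lyz2 and Adgre1 were each at 0.207 CPM or less in every sample. Of 6 stromal and adipocyte markers, 1 was tested and did not pass, and the sum of 96.7 to 119 CPM in WT and 84.4 to 106 CPM in cKO was almost entirely Pecam1, which T cells also express. Plin1 was at 0 in all samples and Adipoq was at 0.0882 CPM or less. Pdgfrb, a stromal marker too low to be tested, was higher in each cKO sample than in each WT sample, with means of 0.166 CPM in WT and 0.415 CPM in cKO. Neutrophil markers were at 0 throughout. Of 2 CD8 markers Cd8b1 rose from 11.6 to 14.1 CPM, with sums of 11.9 to 15.1 CPM in WT and 15.1 to 19.1 CPM in cKO, and of 5 B cell markers Cd79b fell from 1.72 to 0.911 CPM, with sums of 2.97 to 4.81 and 2.46 to 3.98 CPM. No dendritic marker passed (1 of 5 tested, sums of 2.21 to 3.60 CPM in WT and 2.74 to 3.75 CPM in cKO), nor did any natural killer marker (1 of 3 tested, 1.18 to 2.95 and 2.77 to 8.31 CPM). The part of such cells in the changes of Scd1 and Abca1 was not tested.

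The sample WT 1 was the lowest of the WT samples for 27 of the 38 members. How often WT 1 was the lowest over all genes was not counted. Over all members, its mean log2 level relative to the WT mean was -0.11. The remaining WT samples ran from 0.0061 to 0.05 and the cKO samples from -0.03 to 0.06. It was -0.10 for the genes from squalene to cholesterol, -0.17 for desaturases and elongases and -0.34 for the LXR targets, each the lowest of the 9 samples. WT 1 was also high in 10 genes of T cell activation, at 0.30, where the other WT samples ran from -0.26 to 0.12 and the cKO samples from 0.06 to 0.34. The T helper 1 factor gene Tbx21 was at 60.6 CPM there, and 10.7 to 53.5 CPM was its range over WT 3, 4, 5 and 9. Their part in the level of the lipid genes was not tested. Without WT 1, 2 members rose (Scd1 and Acaca) and 3 fell (Nsdhl, Fads1 and Abcg1), and the median log2 fold change of the set was -0.03. Among all genes, 1363 were then called higher and 1570 lower, against 1028 and 1296 with all samples.

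**Figure D4:**
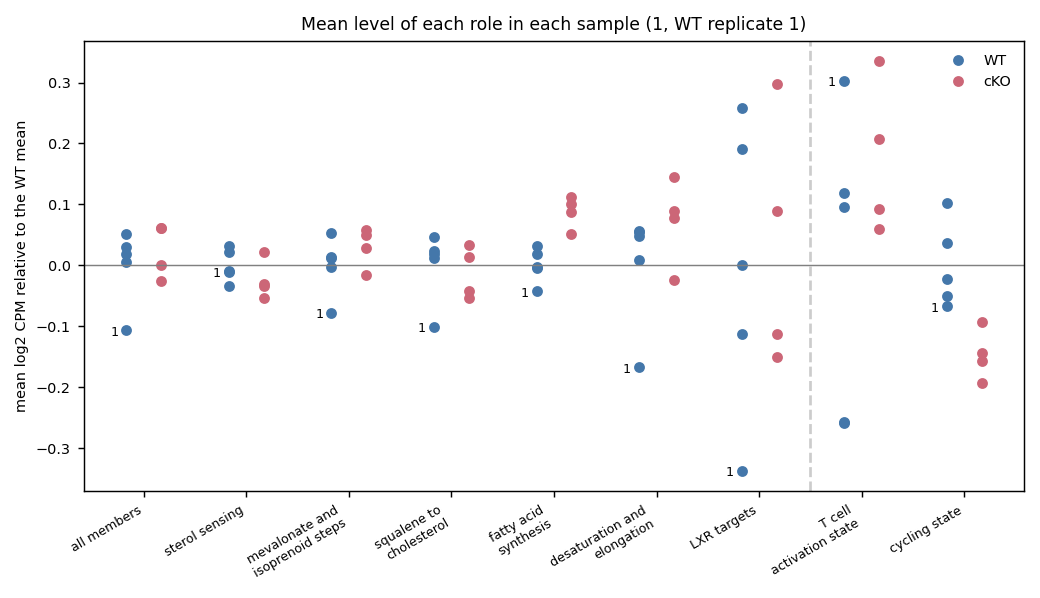
Mean log2 CPM of each role in each sample relative to the WT mean (vertical axis), with WT in blue, cKO in red and WT replicate 1 marked. WT 1 lies lowest at -0.11 over all members and at -0.34 in the LXR targets, while the genotypes separate without overlap in fatty acid synthesis and, to the right of the dashed line, in the 8 cycling genes.

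By role, fatty acid synthesis was the only multi-gene role of the 6 in which the genotypes did not overlap, with WT samples from -0.04 to 0.03 and cKO samples from 0.05 to 0.11. These 4 genes include Acaca, which rose, and Acss2, so the level is a description of those genes. The 8 cycling genes separated the genotypes in the other direction, at -0.15 in cKO (SD 0.04, n = 4). The genes from squalene to cholesterol were at -0.01 in cKO (SD 0.04) and the sterol sensing genes at -0.02 (SD 0.03). Of these 8, 4 fell, where 8.82% of all genes did, among them Pcna at -0.16 (edgeR adjusted p = 0.00758). The part of cycling in the level of the lipid genes was not tested.

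A wider list of 69 lipid genes around the set, 65 of them tested, held 5 that rose, 8 that fell and 52 that did not pass. The 20% that passed compare with 15.8% of all genes. The number that rose was 10 without WT 1 and 3 without any 1 of WT 3, WT 4, cKO 6, cKO 8 or WT 9. Of 6 genes that process or degrade SREBP, Mbtps2 rose, an X-linked gene whose product is the site-2 protease that makes the second cut of SREBP. It was at 44.8, 42.9, 40.1, 43.8 and 42.3 CPM in WT 1, 3, 4, 5 and 9 and at 55.2, 56.4, 52.4 and 47.5 CPM in cKO 2, 6, 7 and 8, so each cKO sample was above each WT sample. Its log2 fold change was 0.31 (SE 0.05, edgeR adjusted p = 0.00459). Mbtps1, the site-1 protease that cuts first, was at -0.09 (adjusted p = 0.144). The call of Mbtps2 held in each of 18 other settings, from 0.27 to 0.35.

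Among 10 genes of sterol storage, esterification and transport, 3 fell, none rose and 7 did not pass. Of all genes tested, 8.82% fell and 7% rose. Npc2, which binds cholesterol in the lysosome, was at 350.2, 375, 384, 374 and 348 CPM in WT 1, 3, 4, 5 and 9 and at 334, 272, 302 and 298 CPM in cKO 2, 6, 7 and 8. Lipa, the lysosomal lipase that frees cholesterol from its esters, was at 66.6, 70.8, 80.6, 71.7 and 76.8 CPM in WT and at 59.4, 58.7, 63.9 and 63.5 CPM in cKO. Neither gene had overlapping groups, and the cKO samples were the lower ones. In the edgeR test Npc2 fell by 0.28 on the log2 scale (SE 0.06, adjusted p = 0.00756) and Lipa by 0.26 (SE 0.06, adjusted p = 0.0123). Soat2, an acyltransferase that makes cholesteryl esters, was low, with a mean of 3.52 CPM in WT (SD 1.003, n = 5) and 1.93 CPM in cKO (SD 0.119, n = 4), a fall of 0.86 on the log2 scale (SE 0.20, adjusted p = 0.0156). Its paralog Soat1 was at -0.05 (adjusted p = 0.621). The calls of Npc2, Lipa and Soat2 held in all 18 other settings. At unadjusted p under 0.05 this group had 3 higher and 3 lower genes, where 14.9% of all genes were higher and 16.3% lower.

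**Figure D5:**
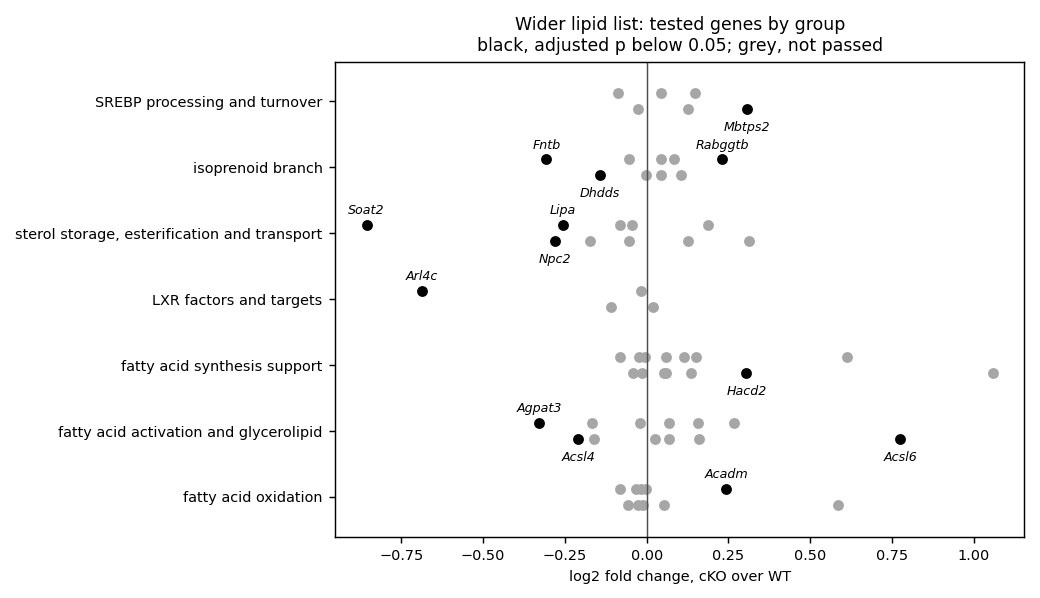
Log2 fold change, cKO over WT, of the 65 tested genes of the wider list by group, each point a gene, with the genes that passed in black and named. Soat2, Npc2 and Lipa lie below 0 in the row of sterol storage and transport, and Mbtps2 lies at 0.31 in the row of SREBP processing.

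Among 4 LXR factors and targets, Arl4c fell, where 8.82% of all genes tested did. This small GTPase gene was at 121, 151, 234, 154 and 203 CPM in WT 1, 3, 4, 5 and 9 and at 118, 78.8, 123 and 109 CPM in cKO 2, 6, 7 and 8. WT 1 lay among the cKO samples and the other WT samples lay above them. The log2 fold change was -0.69 (SE 0.18, edgeR adjusted p = 0.0271), and the call was lost with robust quasi-likelihood (0.0698) and when WT 4, WT 9, cKO 6 or cKO 8 was left out (adjusted p from 0.0542 to 0.0785). Nr1h2, which encodes LXR beta, was at 69.8 and 70.8 CPM, and Nr1h3, which encodes LXR alpha, was below 0.5 CPM in both group means (0.464 and 0.426).

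In the isoprenoid branch, which uses farnesyl diphosphate for purposes other than sterol, 1 of 9 genes rose and 2 fell. Over all genes tested the shares were 7% and 8.82%. Fntb, the beta subunit of farnesyltransferase, fell by 0.31 on the log2 scale (SE 0.06, edgeR adjusted p = 0.00784), from 54.0 to 43.7 CPM. Rabggtb, a subunit of the geranylgeranyl transferase for Rab proteins, rose by 0.23 (SE 0.06, adjusted p = 0.0299), a call lost without 6 of the 9 samples in turn (all but WT 1, WT 5 and cKO 7). Dhdds, which starts dolichol synthesis, fell by 0.14 (adjusted p = 0.0398), and passed in 8 of 18 other settings. The farnesyltransferase alpha subunit gene Fnta was at -0.05 (adjusted p = 0.538).

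The groups around fatty acids moved in both directions, in a comparison where 7% of all genes tested rose and 8.82% fell. Of 12 genes of fatty acid activation and glycerolipid synthesis, Acsl4, an acyl-CoA synthetase for arachidonate, fell by 0.21 (SE 0.04, edgeR adjusted p = 0.00639) and the acyltransferase gene Agpat3 fell by 0.33 (SE 0.08, adjusted p = 0.0151). Acsl6 rose by 0.77 (SE 0.22, adjusted p = 0.0356), from 9.58 to 16.4 CPM, with cKO 2 at 9.24 CPM inside the WT range, and passed in 10 of 18 other settings. Acsl5, another synthetase, was at 0.07 (adjusted p = 0.221). Of 14 tested genes that support fatty acid synthesis and elongation, Hacd2, a dehydratase of the elongation cycle, rose by 0.31 (SE 0.07, adjusted p = 0.0111). Of 10 genes of fatty acid oxidation, Acadm, the medium-chain acyl-CoA dehydrogenase, rose by 0.24 (SE 0.04, adjusted p = 0.00431), from 31.1 to 36.8 CPM. Cpt1a, the carnitine transferase that admits fatty acids to mitochondria, was at -0.08 (adjusted p = 0.429).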

How the data were processed

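The authors deposited raw read counts per gene as 1 table of whole numbers without normalization, and each sample has 1 column. Libraries were stranded and mRNA-enriched, per the labels' protocols. The submitters' processing notes name bcl2fastq 2.17 and mm10. Alignment, counting, strand setting and annotation: not given in the sources used here.

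Counts were tested with edgeR 4.0.16 in R 4.3.3 (TMM scaling, genes kept by filterByExpr, quasi-likelihood F test, two-sided, Benjamini-Hochberg adjusted p below 0.05 over 14693 genes, 5 WT against 4 cKO samples, no covariate). CPM used TMM-adjusted totals. Symbols were found for 37607 of 39017 IDs. Positions and exonic lengths came from GENCODE M21. Members' reads could be shared with overlapping genes. On the same strand, Gm43738 covers 26.7% of the exonic length of Fdps and Vps51 covers 12.1% of that of Tm7sf2. On the other strand, Ctsb covers 18.3% of that of Fdft1, 5830462I19Rik 13.2% of that of Scap and Gm48342 12.1% of that of Hmgcs1. Alternatives were DESeq2 1.42.0 and its size factors, upper-quartile scaling, no and stricter filters (1 CPM in 4 samples), limma 3.58.1 voom with and without sample weights, robust fitting, 1 surrogate variable (sva 3.50.0) and leaving out each sample. The test was tested on simulated data. Within groups the chi-square per gene between samples was at least 3.34, so no samples agreed within sampling noise.

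The members and lists were chosen with earlier results of these data known. Values per sample are given for called members, for Srebf1 and Srebf2, and for the member with the smallest p of each role without a call. Of the wider list, up to 2 called genes per group were to be named. Soat2, Dhdds and Acsl6, and members and uncalled genes beyond these rules, were added after their values were seen.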

Additional observations from a re-analysis of the deposited data

Results flagged for a closer look

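Of 104 groups of samples examined over 52 genes, 2 held a sample far from the others of its group. Chance at 1 in 20 would give about 5.2, so the 2 are no more than chance would give. Both were WT 1. Lss, lanosterol synthase, was at 224 CPM in WT 1 and between 250.05 and 256 CPM in the other WT samples. Nsdhl, a sterol dehydrogenase of the C4 demethylation step, was at 90.6 CPM in WT 1 and between 102 and 106 CPM in the other WT samples, and passed the edgeR test as lower in cKO without it (log2 fold change -0.16, adjusted p = 0.0228).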

How the results depend on the processing

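Scd1 passed in all 18 other settings (adjusted p up to 0.0324), and 27 of the 35 members that did not pass stayed so in every setting. Members that rose numbered 6 with upper-quartile scaling (adding Elovl6, Hsd17b7 and Pmvk), 7 with sample weights (adding Elovl6, Fads2, Hmgcs1 and Pmvk) and 6 with 1 surrogate variable (adding Elovl6, Fads2 and Hmgcs1). Among all genes, 1265, 1241 and 1060 rose in those settings, against 1028 in the main test. Leaving out each sample in turn gave 1 to 3 that rose and 0 to 3 that fell, where 3 was without WT 1. It gave 531 (without cKO 6) to 1363 (without WT 1) genes higher among all genes and 732 to 1570 lower, and 3 to 10 higher in the wider list. No paired analysis was possible because the groups share no replicate number. The cause of these shifts was not tested.

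The log2 fold change of 10 members near 0 in the main test changed sign in at least 1 other setting, without passing there. Upper-quartile scaling gave log2 fold changes of 0.0013 (Acat2), 0.018 (Fdft1), 0.0038 (Sqle), 0.0037 (Lss), 0.0079 (Dhcr7) and 0.015 (Fasn). The surrogate variable gave 0.032 (Acat2), 0.0053 (Mvk), 0.031 (Fdft1), 0.025 (Sqle), 0.0084 (Lss), 0.046 (Dhcr7), 0.0078 (Fasn), 0.0043 (Scd2) and 0.12 (Mylip). Sample weights gave 0.0066 (Fdft1), 0.0067 (Dhcr7) and 0.015 (Mylip). Fdft1 was at 0.0027 with DESeq2 size factors, 0.0021 with at least 1 CPM in 4 samples, 0.0014 with DESeq2 and 0.00031 with limma-voom, and Sc5d at -0.0019 without a filter. Leaving out each sample in turn moved the log2 fold change over -0.074 to 0.022 for Acat2, -0.026 to 0.019 for Fdft1, -0.055 to 0.0096 for Sqle, -0.047 to 0.0029 for Lss, -0.021 to 0.016 for Sc5d, -0.048 to 0.028 for Dhcr7, -0.011 to 0.012 for Fasn, -0.068 to 0.00039 for Scd2 and -0.11 to 0.038 for Mylip.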
